A study of Arabidopsis thaliana with 2 samples.

Results

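Mature pollen of Arabidopsis thaliana was examined at 394 loci that the deposited tables class as other RNA, out of 33322 nuclear loci listed. Every row of that class was taken, whatever its level. The class holds long noncoding RNAs, transcripts antisense to other genes, the precursors of trans-acting small interfering RNAs, and loci of unknown function. The RNA came from open flowers of 2 ecotypes, Ler-0 and Col-0, neither with any added genotype or treatment in the labels, and each ecotype has 1 library. Pollen was shaken off the flowers by vortexing in buffer and passed through a mesh, and ScriptSeq-v2 libraries were built from total RNA after depletion of rRNA. Col-0 is the ecotype of the reference genome, and Ler-0 is another laboratory ecotype. Both libraries were counted on that genome, TAIR10, so less RNA in Ler-0 and sequence differences that cost reads there cannot be told apart. With 1 library each, ecotype, plants, collection and library preparation cannot be told apart, and no difference has a replicate check. In bulk RNA, fewer cells of a type and less RNA per cell cannot be told apart either.

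Noncoding RNAs act without being translated. Natural antisense transcripts are read from the strand opposite another gene and can affect its transcription, chromatin or RNA. TAS transcripts are cut at a site paired with a microRNA, copied into double-stranded RNA by RDR6 and diced into phased small RNAs that silence other genes. Target mimics hold a microRNA in a site that it cannot cut. A pollen grain is a large vegetative cell that forms the tube and carries the sperm cells inside it. In the vegetative cell transposons are partly released from silencing, and small RNAs made from them are a main theme of the series this pollen belongs to.

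The sequences below are referred to in the results and were read from the RefSeq TAIR10.1 genome. The first set shows why 3 loci with more RNA in Ler-0 pollen are set apart later. The stretch from 120 bases before to 20 after the listed start of each holds the letters TCCCACATCG and, downstream, TATA. Capitals mark both. TCCCACATCG was read upstream of U1.5, a small nuclear RNA gene (chr1:2538306-2538315, minus strand); it is known as the upstream sequence element of plant genes of that kind, and its distance to the TATA box differs there between genes read by RNA polymerase II and by RNA polymerase III.

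AT1G15405 (chr1:5298147-5298286, minus strand): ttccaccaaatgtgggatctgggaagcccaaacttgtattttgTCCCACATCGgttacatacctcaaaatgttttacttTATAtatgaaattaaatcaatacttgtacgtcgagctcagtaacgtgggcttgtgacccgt

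AT1G70185 (chr1:26429613-26429752, plus strand): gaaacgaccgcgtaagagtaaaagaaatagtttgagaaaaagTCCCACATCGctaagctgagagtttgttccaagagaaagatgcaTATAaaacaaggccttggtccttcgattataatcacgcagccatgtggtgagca

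AT3G61198 (chr3:22656580-22656719, minus strand): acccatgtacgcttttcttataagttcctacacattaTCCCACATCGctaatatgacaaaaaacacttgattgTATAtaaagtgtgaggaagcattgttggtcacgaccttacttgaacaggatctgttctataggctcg

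The most abundant member of all, AT1G15405 (chr1:5297875-5298166, minus strand), is 292 bases long and is shown whole, with the T run at its end in capitals: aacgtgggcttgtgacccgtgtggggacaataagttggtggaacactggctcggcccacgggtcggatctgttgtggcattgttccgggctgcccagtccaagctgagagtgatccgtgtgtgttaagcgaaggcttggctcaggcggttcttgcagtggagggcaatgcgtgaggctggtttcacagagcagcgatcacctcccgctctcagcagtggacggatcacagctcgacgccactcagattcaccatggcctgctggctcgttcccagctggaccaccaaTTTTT

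The second set pairs each microRNA that starts trans-acting small RNA production with its best-paired site in the TAS members that it matched. Further sites of the same microRNA in a locus were not sought, and whether a site shown is the one cut was not tested. The microRNAs are written as DNA with the seed (bases 2 to 8) in capitals. In the sites, capitals mark bases that pair with the microRNA by Watson-Crick rules.

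miR173-5p (chr3:8236161-8236182, plus strand): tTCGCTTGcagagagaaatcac
TAS1A site (chr2:11722081-11722102, minus strand): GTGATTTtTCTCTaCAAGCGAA
TAS1C site (chr2:16537890-16537911, minus strand): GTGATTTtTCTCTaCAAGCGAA
TAS2 site (chr2:16539991-16540012, minus strand): GTGATTTtTCTCTcCAAGCGAA
TAS1B site (chr1:18549660-18549681, minus strand): GTGATTTtTCTCaaCAAGCGAA
miR390a-5p (chr2:16061971-16061991, plus strand): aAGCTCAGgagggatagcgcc
TAS3 site (chr3:5862099-5862119, plus strand): GGtGtTATCCtatCTGAGCTT
TAS3b site (chr5:20134458-20134478, plus strand): GaCGCTATCttaCCTGAGCTT
TASIR-ARF site (chr5:23394422-23394442, plus strand): GtttCTATtCCTCCTGAGCTT
miR828 (chr4:13847020-13847041, plus strand): tCTTGCTTaaatgagtattcca
TAS4 site (chr3:9417809-9417830, minus strand): TGGAATACTCATTTgAGCAAGA

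The libraries held 88952509 reads over listed loci in Ler-0 against 76488187 in Col-0. The deposited unit is FPKM, fragments scaled to gene span in kilobases and to library size. FPKM 1 in a locus of 1 kb stood for 89.0 reads in Ler-0 against 76.5 in Col-0, and the smallest count taken as measurable, 3 reads, stood for 0.0337 and 0.0392 FPKM. Among marker genes, all 8 of the vegetative cell were at 206 to 12345 FPKM in Ler-0 against 131 to 9535 in Col-0, and all 4 of sperm at 2.18 to 138 and 1.18 to 58.0 FPKM. The summed level of 5 green tissue markers was 54.1 FPKM in Ler-0 against 48.8 in Col-0, with LHCB1.1 the highest, at 33.1 and 28.9; RBCS1A and RBCS1B went the other way, at 1.66 and 0.786 FPKM in Ler-0 against 4.07 and 3.03 in Col-0. The floral organ markers AP1 and SEP3 were at 1.65 and 1.82 FPKM in Ler-0 and 0.975 and 0.911 in Col-0. The tapetum markers AMS and A9 stayed at 0.0523 to 0.151 and 0.0811 to 0.470 FPKM. Structural RNAs took different shares of the libraries: small nuclear RNA loci held 0.0752% of reads in Ler-0 and 0.00734% in Col-0, small nucleolar RNA loci 0.0141% and 0.00192%, and tRNA loci 0.0656% and 0.00273%.

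Most of the noncoding loci had low values in pollen, and a few had very high ones. Where a member overlaps another gene, its reads cannot be told apart from those of that gene, as described below. FPKM was 1 or more at 101 members in Ler-0 against 119 in Col-0. The 131 members at that level in either library are called expressed here; they are 33.2% of the members, beside 28.7% of all listed loci and 31.9% of protein-coding loci. Of these, 89 were at FPKM 1 in both libraries, 12 in Ler-0 alone and 30 in Col-0 alone. Over all listed loci the order was the other way, with 8415 at FPKM 1 in Ler-0 against 7803 in Col-0. Of those loci, 6656 were at that level in both libraries, 1759 in Ler-0 alone and 1147 in Col-0 alone. No read at all was found at 7 members in Ler-0 and 14 in Col-0, of which 2 were shared. The median FPKM of the expressed members was 2.33 in Ler-0 against 3.19 in Col-0, 39 members reached 10 in either library, and 8 reached 100.

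Together the members held 540807 reads in Ler-0, or 0.608% of the library, and 482853 in Col-0, or 0.631%. That share includes reads at bases that members share with other genes, and it rested on few loci. The 5 members of most reads held 76.8% of member reads in Ler-0 and 72.8% in Col-0. In Ler-0 they were AT2G45315, AT1G15405, AT3G05932, AT1G44125 and AT4G12917. In Col-0, AT4G04077 stood among them in place of AT4G12917. Members that overlap no other listed locus held only 0.185% of reads in Ler-0 against 0.0988% in Col-0. Without the overlapping members the share was thus the higher in Ler-0, a direction that rests on AT1G15405. That locus held 113351 of the 164596 reads of members without overlap in Ler-0, and 21254 of 75533 in Col-0. Without the member of most reads, the share of the other members was 0.469% against 0.458%, but that member was AT2G45315 in Ler-0 and AT3G05932 in Col-0. Those shares therefore compare unlike sets of members.

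**Figure D1:**
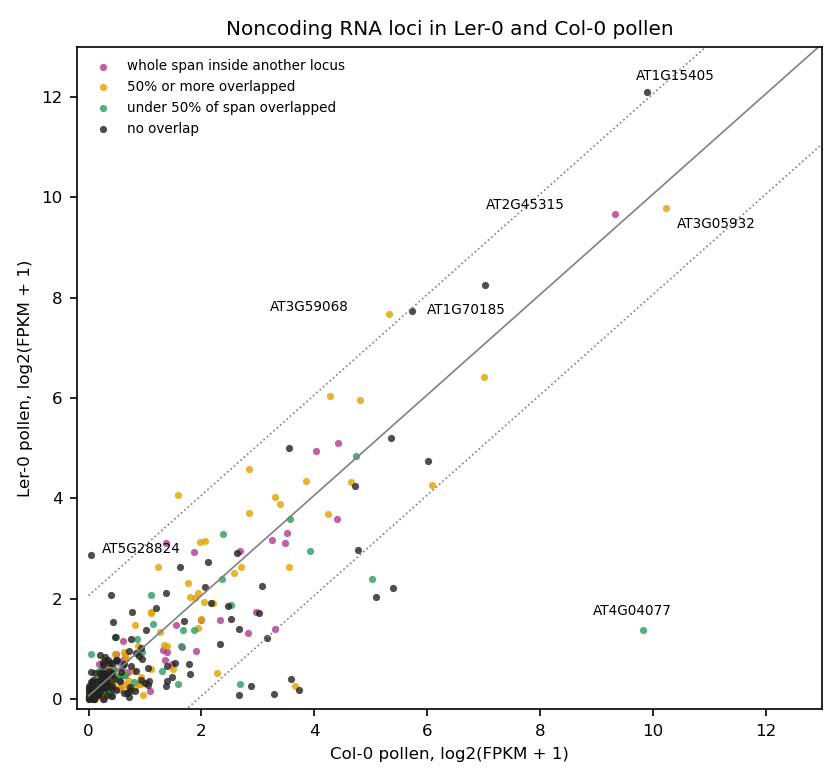
Each point is 1 of the 394 members, placed by log2(FPKM + 1) in Ler-0 pollen (y) and Col-0 pollen (x) and coloured by how much of its span another listed locus covers. The solid line is the centre of all genes and the dotted lines are 4-fold either way; AT4G04077 lies far below them and AT1G15405 just above.

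The 10 members of highest mean FPKM differed in what lies around them. AT1G15405 was at 4379 FPKM in Ler-0 (95% counting interval 4354 to 4405) and 955 in Col-0 (942 to 968), from 113351 and 21254 reads. It holds no complete open reading frame from ATG to a stop, and its GC content of 58.6% is the highest of the expressed members. It overlaps no listed locus, although TAIR10.1 places a further antisense locus over it, and the nearest listed gene, AT1G15410, a racemase family gene 157 bases away on the other strand, was at 5.17 FPKM in Ler-0 and 2.82 in Col-0. AT4G12917, of unknown function, was at 304 FPKM in Ler-0 against 130 in Col-0, and its neighbours within 4438 bases were at 0.115 FPKM or below in both libraries. AT1G70185 was at 212 FPKM in Ler-0 and 52.5 in Col-0. AT4G36648, also of unknown function and without overlap, was at 26.0 FPKM in Ler-0 and 64.0 in Col-0. GUT15 (AT2G18440) is not among the 10 and is named for its symbol. The annotation describes it as a noncoding RNA and names it GENE WITH UNSTABLE TRANSCRIPT 15. It was at 17.9 FPKM in Ler-0 against 25.5 in Col-0.

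The other abundant members lie across from a protein-coding gene, and, AT4G04077 apart, their reads matched those of that gene closely. AT3G05932 was at 886 FPKM in Ler-0 against 1203 in Col-0, and covers the whole of GLP8, a germin-like protein gene; it had 113276 reads beside 113264 at GLP8 in Ler-0, and 132179 beside 132166 in Col-0. AT2G45315 was at 809 FPKM in Ler-0 against 646 in Col-0, and lies wholly inside GAE4, which codes for an epimerase that makes a building block of pectin; it had 123704 reads beside 126417 at GAE4 in Ler-0, and 84953 beside 89343 in Col-0. AT1G44125 was at 84.4 FPKM in Ler-0 and 129 in Col-0, across from AT1G44120, named CELLULOSE SYNTHASE INTERACTIVE 2, at 80.6 and 123 FPKM. AT3G59068 was at 204 FPKM in Ler-0 and 38.9 in Col-0, across from the end of AT3G59070, a cytochrome b561 family gene. AT2G19572 was at 61.7 FPKM in Ler-0 and 27.2 in Col-0, across from CDA1, a cytidine deaminase, at 55.5 and 24.6 FPKM. Across from AT4G04077, at 1.58 FPKM in Ler-0 and 910 in Col-0, AT4G04078 covers only 14.3% of the member and was at 0.630 and 233 FPKM.

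**Figure D2:**
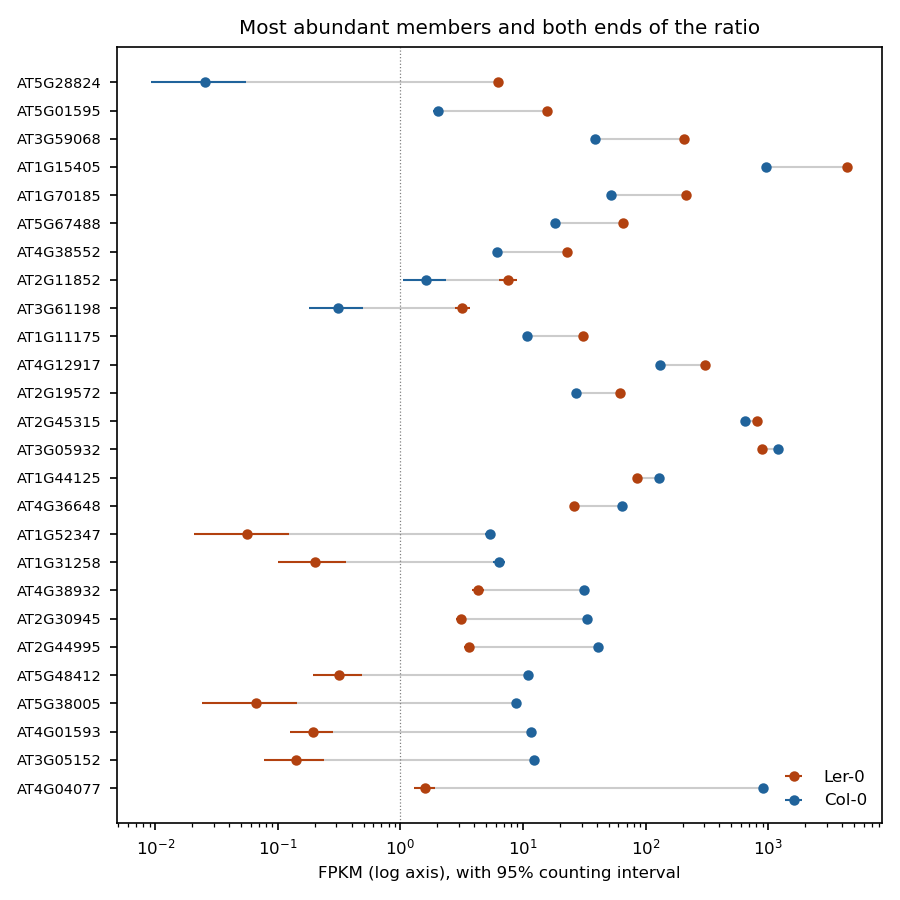
FPKM (log axis) in Ler-0 and Col-0 pollen of the most abundant members and of those at both ends of the ratio, ordered by the ratio; bars are 95% counting intervals and the dotted line is FPKM 1. At both ends the 2 libraries differ by far more than counting error, from AT5G28824 at 6.29 FPKM in Ler-0 and 0.0253 in Col-0 to AT4G04077.

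Overlap with other genes was the rule among these loci. Of the 394 members, 241 share bases with another listed locus, in 260 pairs, 248 of them on opposite strands and 245 with a protein-coding gene. The annotation calls 223 members natural antisense transcripts and 89 unknown genes. By span, 64 members lie wholly inside another locus, 124 are covered by 50% or more, 53 by less, and 153 overlap none. The use of strand in counting is not given in the sources used here, so reads of a member and of its partner cannot be told apart where they overlap.

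The recovered reads show how close the loci of a pair were. Of 63 members wholly inside a gene on the other strand, none had more reads than that gene in either library, and 62 in Ler-0 and 60 in Col-0 had reads. Where such a member spans 80% or more of a partner with at least 20 reads, its reads were 93.4% of the partner's at the median in Ler-0 (range 76.7% to 100%, 14 pairs) and 93.1% in Col-0 (66.7% to 100%, 10 pairs). AT4G37432 had 4522 reads in Ler-0 beside 4557 at the gene that contains it, CYP91A2, a cytochrome P450, and 2347 beside 2386 in Col-0. AT5G49152 spans GEX2, a sperm membrane protein gene, on the same strand, and had 2350 reads beside 2152 at GEX2 in Ler-0, and 4128 beside 3682 in Col-0. Its longest open reading frame, 1097 codons, is the longest of any member.

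Member and partner also stood apart between the ecotypes by nearly equal amounts. The measure from here on is the log2 ratio of FPKM + 1 with Ler-0 on top, centred by taking off 0.06, the median of the 6656 loci that reached FPKM 1 in both libraries, so that a positive value means more in Ler-0. In 73 opposite-strand pairs with both loci expressed, 68 pairs lay on the same side of 0, and the median difference between member and partner was 0.10 log2 units. Only 4 pairs differed by more than 1, 3 of them among the 12 pairs with less than 50% of the member covered. Across the 73 pairs Pearson's r was 0.96, a description only, since all points come from the same 2 libraries and the loci of a pair share bases.

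**Figure D3:**
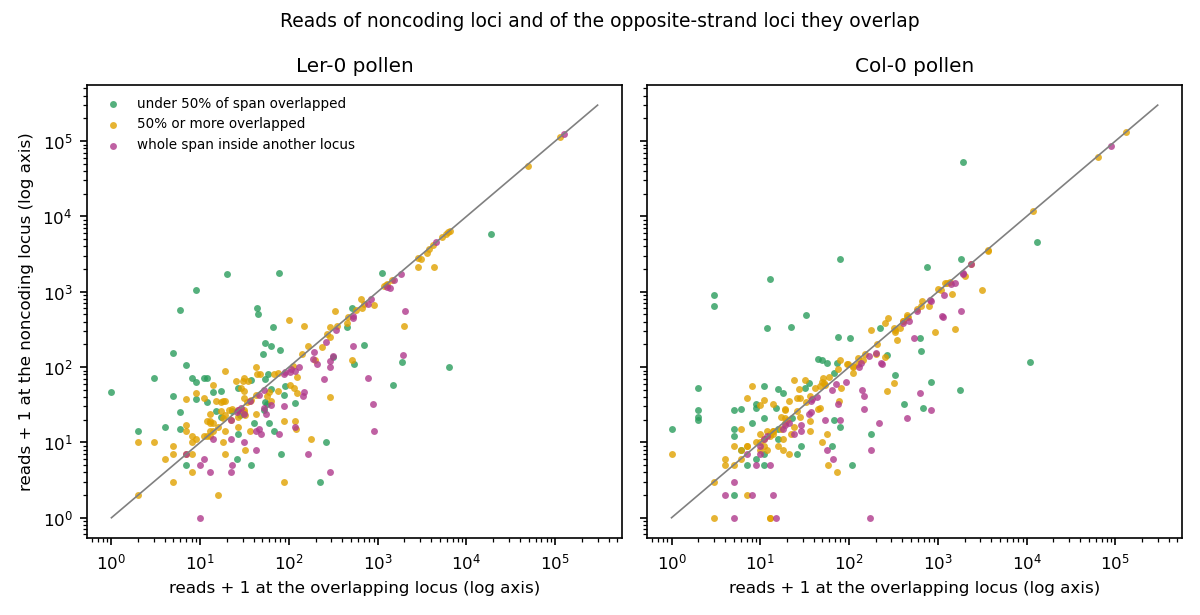
Reads + 1 (log axes) of each member and of the opposite-strand locus it overlaps, in Ler-0 (left) and Col-0 (right), coloured by the share of the member that is covered. Members wholly inside a partner lie on or below the line of equal reads, while members covered by less than 50% scatter to both sides.

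Some overlapping members had more reads than their partner, by a little or by a great deal. Of the 82 overlapping expressed members, 22 had more reads than all their partners together in both libraries, and 27 in at least 1. Of the 22, 7 were ahead by at most 10% in both libraries, AT3G05932 and AT5G01595 among them, and 6 had at least 2 times their partners' reads in both. AT3G48115 had 1736 reads in Ler-0 against 1470 in Col-0, and its partner AT3G48120, a splicing factor gene, 19 and 12. AT1G69587, which spans the whole of CLE45, a gene for a signalling peptide, had 1061 reads in Ler-0 against 328 in Col-0, and CLE45 had 8 and 11. AT2G26355 had 498 reads in Ler-0 against 898 in Col-0, and AT2G26360, a mitochondrial carrier gene, 44 and 2. AT1G64572 had 609 reads in Ler-0 and 252 in Col-0 beside 43 and 75 at AT1G64580. AT1G67365 had 17 reads in Ler-0 against 341 in Col-0, and ASY1, a protein of the meiotic chromosome axis, 59 and 21. In the first 4 of these pairs the member had more reads than its partner in both libraries, and AT1G67365 had more in Col-0 alone. These 5, with AT4G37432 and AT5G49152, were chosen after their values were seen.

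More of the noncoding loci were lower than higher in Ler-0 pollen. At 4-fold, a log2 ratio of 2 or more either way, 4 of the 131 expressed members were higher in Ler-0, or 3.05%, where 3.44% of all 9562 expressed loci were. In the other direction 12 members were lower in Ler-0, or 9.16%, where 2.22% of all expressed loci were. Under 2-fold lay 85 members, 52 were above 0 and 79 below. Of all 9562 expressed loci, 7494 lay under 2-fold, 5075 were above 0 and 4487 below. The median of the members was -0.36, beside 0.06 over all expressed loci and 0.03 over protein-coding ones. A locus counts as expressed through either library, so members expressed in 1 library alone had to differ.

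Loci 4-fold lower in Ler-0 were found mainly among members that overlap little or nothing. Of the 49 expressed members that overlap no listed locus, 8 were 4-fold lower in Ler-0 (16.3%) and 2 higher (4.08%), with a median of -0.76. Of the 18 covered by less than 50%, 3 were lower (16.7%) and 0 higher, with a median of -0.46. Of the 40 covered by 50% or more, 1 was lower (2.5%) and 2 were higher (5.0%), with a median of 0.04. The 24 expressed members wholly inside another locus included none past 4-fold, at a median of -0.46. By annotation, 6 of 32 expressed unknown genes were lower and 2 higher, and 4 of 77 natural antisense transcripts were lower and 2 higher. The difference between these classes was not tested, and the count on the lower side depends on the pseudocount of 1, since it was 4 with a pseudocount of 5 (3.05%, where 0.805% of all expressed loci were lower) and 22 with 0.1 (16.8%, where 6.07% were).

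**Figure D4:**
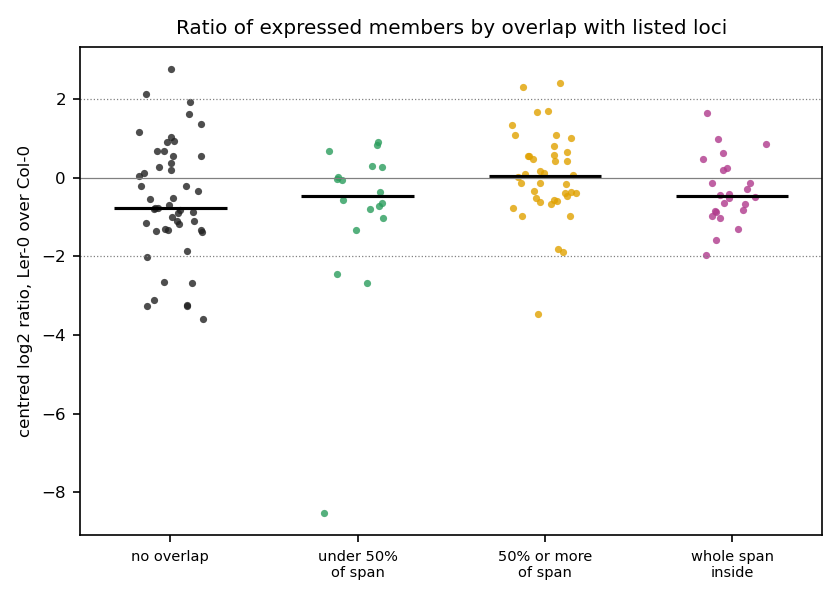
Centred log2 ratio, Ler-0 over Col-0, of the 131 expressed members by overlap with listed loci; bars are medians and dotted lines 4-fold. The 49 members without overlap have their median at -0.76 and the 24 wholly inside another locus lie within 4-fold.

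Among members without a partner, AT5G28824 had the highest ratio. It was at 6.29 FPKM in Ler-0 and 0.0253 in Col-0, from 1731 and 6 reads, with a log2 ratio of 2.77 and an FPKM ratio of 248 (95% counting interval 114 to 677). The gene is of unknown function, lies 1142 bases from a transposable element gene, and resembles 33 other places in the genome (at least 80% identity over 100 bases or more). That transposable element gene, AT5G28826, was at 0.142 FPKM in Ler-0 and 0.626 in Col-0. AT1G15405 followed, at 2.13, with an FPKM ratio of 4.59 (4.52 to 4.65). AT1G70185 came next at 1.93, just inside 4-fold, and AT3G61198 at 1.61, with 3.19 FPKM in Ler-0 and 0.311 in Col-0. By the same measure AT1G15405, AT1G70185 and AT3G61198 resemble 6, 10 and 7 other places. The counting intervals do not cover how reads with several places were counted. AT1G11175 was at 30.9 FPKM in Ler-0 and 10.7 in Col-0, a log2 ratio of 1.38. It ends 118 bases before SCAMP2, a secretory membrane carrier gene on the same strand with a ratio of 0.82.

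The other members at this end had ratios near those of the gene they overlap, with 1 exception. AT5G01595 was at 15.7 FPKM in Ler-0 and 2.01 in Col-0, a log2 ratio of 2.41, and FER1 on the other strand, which codes for the iron store ferritin, was at 22.3 and 2.83 FPKM, a ratio of 2.54. The member had 4165 reads in Ler-0 against 459 in Col-0, and FER1 4155 and 454. AT3G59068 stood at 2.30 and AT3G59070, across from it, at 2.16. AT5G67488 was at 65.2 FPKM in Ler-0 and 18.3 in Col-0 (1.71), across from AT5G67490, a succinate dehydrogenase assembly factor, at 73.9 and 21.0 FPKM (1.71). AT4G38552 was at 23.0 FPKM in Ler-0 and 6.19 in Col-0 (1.68), across from AT4G38550, a phospholipase-like gene, at 20.9 and 5.62 (1.66). The exception was AT2G11852, wholly inside AT2G11851: the member was at 7.58 FPKM in Ler-0 against 1.60 in Col-0 (1.66), the partner at 5.33 and 2.68 (0.72).

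AT4G04077 had the lowest ratio, -8.52, from 106 reads in Ler-0 and 52386 in Col-0. Its short partner AT4G04078 had a ratio of -7.23, and the next gene downstream, ISU3, an iron-sulfur scaffold gene 1465 bases away, was at 2.02 FPKM in Ler-0 and 2.65 in Col-0. AT4G01593 was at 0.193 FPKM in Ler-0 and 11.6 in Col-0, a ratio of -3.46. It spans AT4G01595, a protein kinase gene at 0.142 and 12.5 FPKM, with a ratio of -3.62. AT4G38932 was at 4.28 FPKM in Ler-0 and 31.6 in Col-0 (-2.69), while AT4G38930 across 12.1% of it, a gene of the ubiquitin fusion degradation family, was at 2.21 and 4.35 (-0.80).

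The other members of lowest ratio, none of which overlaps a listed locus, could be set against their neighbours only where a neighbour had RNA. At 3 of them such a neighbour had a log2 ratio of -0.02 to 0.35. AT3G05152 was at 0.141 FPKM in Ler-0 and 12.3 in Col-0, from 14 and 1050 reads, a log2 ratio of -3.60. AT3G05150, a transporter gene 436 bases away on the same strand, was at 76.3 FPKM in Ler-0 and 57.1 in Col-0. AT1G52347 was at 0.0564 FPKM in Ler-0 against 5.37 in Col-0 (-2.66), and AT1G52343, 787 bases away, at 54.3 and 52.5. AT1G31258 was at 0.203 FPKM in Ler-0 against 6.37 in Col-0 (-2.68), and ZIP10, a zinc transporter gene 3723 bases away, at 3.97 and 3.63. AT5G38005 was at 0.0661 FPKM in Ler-0 against 8.80 in Col-0 (-3.26), and both its neighbours were at 0.182 FPKM or below in each library, too low to show such a ratio. Beside AT2G44995, EMB2766, a nuclear pore gene 432 bases away on the same strand, was at 2.29 FPKM in Ler-0 and 9.38 in Col-0, a ratio of -1.72.

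AT2G44995 and AT2G30945 are copies of each other on chromosome 2. Aligned over 1606 columns they share 1563 bases, with 14 mismatches and 29 gap columns. AT2G44995 was at 3.63 FPKM in Ler-0 against 41.0 in Col-0 (-3.24), and AT2G30945 at 3.12 and 33.2 (-3.12). Neighbours of AT2G30945 on both sides, AT2G30942 and VAR2, a chloroplast protease gene, were likewise low, at 0.631 FPKM or below in each library. How reads that align to both copies were counted is not given in the sources used here, so the levels of the 2 loci are uncertain. AT5G48412, at 0.314 FPKM in Ler-0 and 10.97 in Col-0 (-3.25), has a copy of 96.5% identity, AT2G31585, also a member, at 0.186 and 0.665 FPKM; its nearest listed genes were at 0.0788 FPKM or below in each library. In all, 17 members, 10 of them expressed, match another place at 95% identity or more over at least 50% of their span.

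The last members past 4-fold on this side were AT1G67365 (-2.44), described with its partner ASY1 above, and AT3G44765, of unknown function, at 1.31 FPKM in Ler-0 and 7.94 in Col-0 (-2.01). AT3G44770, 2052 bases from AT3G44765 on the same strand, was at 0.356 FPKM in Ler-0 and 2.02 in Col-0 (-1.22). AT5G20225 lay just short of 4-fold, at 1.64 FPKM in Ler-0 and 8.88 in Col-0 (-1.97). On the higher side the same border ran between AT1G15405 and AT1G70185.

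The letters TCCCACATCG, sought on both strands from 250 bases before to 50 after the listed start, were rare, and 3 of the 4 members that hold them had more RNA in Ler-0. On the strand of the gene they stood at 4 of 394 members (1.02%), 27 of all 33322 loci (0.081%), 3 of 13 small nuclear RNA loci (23.1%) and 3 of 71 small nucleolar RNA loci (4.23%). On the other strand they stood at 0 members and 23 loci. The 3 expressed members with the letters, AT1G15405, AT1G70185 and AT3G61198, had log2 ratios of 2.13, 1.93 and 1.61. The fourth, AT4G00975, was at 0.201 FPKM in Ler-0 and 0.346 in Col-0. This search was added after the ratios were known, so the ratios of the members and other loci that hold the letters are a description.

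The arrangement of the letters varied among these members. They begin at position -77 of AT1G15405 and -83 of AT3G61198, with 26 bases between them and the TATA, and at -78 of AT1G70185, with 34. In AT4G00975, which was not expressed, they begin at -54, also with 26 bases to the TATA. AT1G15405 also ends in the T run shown above. U1.5, from which the letters were read, has them at -78 and 34 bases to the TATA, as AT1G70185 does, and was at 858 FPKM in Ler-0 and 65.1 in Col-0. Of the 12 expressed loci outside the class that hold the letters, 9 were above 0, with a median of 1.11, where 5075 of all 9562 expressed loci were above 0. U12, another spliceosomal RNA, was at 9.76 FPKM in Ler-0 and 37.0 in Col-0. Small nuclear RNA loci as a class took up more of the Ler-0 library, as given above; the part of this in the levels of the 3 members was not tested. Without the 4 members with the letters, 3 members were higher and 12 lower, at a median of -0.38.

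Precursors of trans-acting small RNAs were scarce in pollen of both ecotypes. TAS3, which feeds the small RNAs against auxin response factors, was at 0.535 FPKM in Ler-0 and 1.08 in Col-0, from 45 and 78 reads, and was the only TAS member to reach FPKM 1. TASIR-ARF, another source of the same small RNAs, was at 0.295 FPKM in Ler-0 against 0.898 in Col-0, and TAS3b at 0.134 and 0.0446, from 7 and 2 reads. Among the targets of miR173, TAS1A was at 0.109 FPKM in Ler-0 and 0.0141 in Col-0, TAS1B at 0.389 and 0.234, TAS1C at 0.193 and 0.0793, and TAS2 at 0.261 and 0.0253. TAS4, whose small RNAs act on MYB genes of anthocyanin synthesis, was at 0.643 FPKM in Ler-0 against 0.340 in Col-0.

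The counts behind these values were small. TAS1A had 9 reads in Ler-0 and 1 in Col-0, an FPKM ratio of 7.74 with a counting interval of 1.07 to 339, and TAS2 had 24 and 2, a ratio of 10.3 (2.56 to 90.1). For TAS3 the ratio was 0.496 (0.336 to 0.725), for TASIR-ARF 0.329 (0.159 to 0.639) and for TAS4 1.89 (1.21 to 3.02). The intervals for TAS1B, TAS1C and TAS3b include 1. None of the 8 TAS members was past 4-fold on the scale of FPKM + 1, which levels this low cannot reach. TAS1C shares 31 bases with AT2G39670, at 0.142 FPKM in Ler-0 and 0.106 in Col-0.

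**Figure D5:**
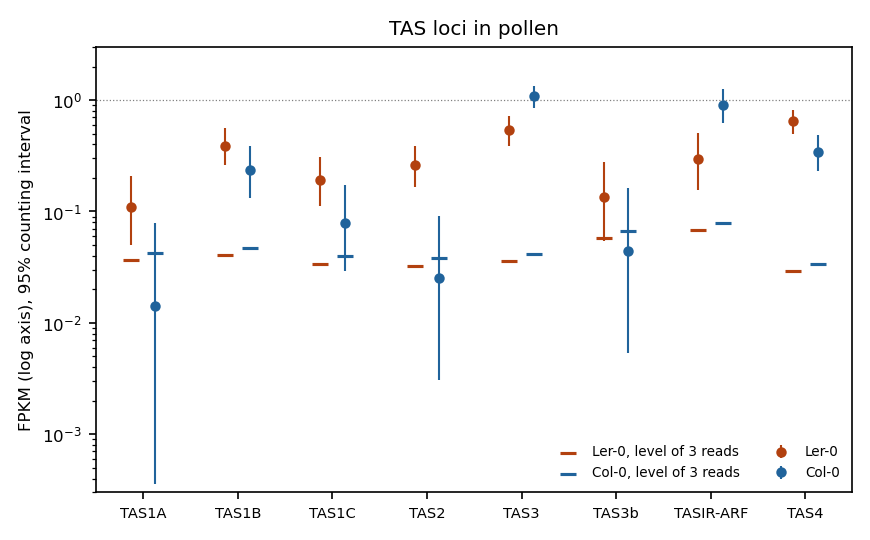
FPKM (log axis) of the 8 TAS members in Ler-0 and Col-0 pollen, with 95% counting intervals; dashes mark the level that 3 reads would give and the dotted line is FPKM 1. TAS1A, TAS2 and TAS3b in Col-0 lie below the level of 3 reads.

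The genes that make and use these small RNAs were low as well. Of 6 genes of the machinery, DRB4, the partner of DCL4 in dicing, was the only one at FPKM 1, with 1.84 in Ler-0 and 3.25 in Col-0. AGO1, which carries miR173 and miR828, was at 0.859 FPKM in Ler-0 and 0.637 in Col-0, AGO7, which carries miR390, at 0.198 and 0.137, RDR6 at 0.113 and 0.0234, SGS3, which works with RDR6, at 0.0653 and 0.116, and DCL4 at 0.0602 and 0.0505. The 4 listed microRNA genes MIR173, MIR390A, MIR390B and MIR828A had 0 to 3 reads in each library; these are the hairpin loci, and mature microRNAs were not measured here. Of 6 targets, only MYB75, an activator of anthocyanin synthesis, reached FPKM 1, with 2.36 in Ler-0 against 0.907 in Col-0, and ARF2, ARF3 and ARF4 stayed between 0.126 and 0.391. Of these 16 genes only DRB4 and MYB75 were expressed, and neither was past 4-fold. The others could not be called on FPKM + 1; the FPKM ratio of RDR6 was 4.84, with a counting interval of 2.26 to 11.9 from 45 reads in Ler-0 against 8 in Col-0.

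The microRNA sites sorted the TAS members by their known triggers, and few other members had a site. A site was a stretch with at most 4 penalty points, 1 for a mismatch and 0.5 for a G:U pair, with no bulge, or with 3 extra bases opposite positions 10 and 11 of the microRNA, the form a target mimic takes. Without a bulge, miR173 matched TAS1A, TAS1C, TAS2 and TAS1B, among 27 loci in all, miR390 matched TAS3, TAS3b and TASIR-ARF, among 40, and miR828 matched TAS4 with 0.5 points, among 36. The sites were those shown above, the best-paired of each locus. miR845a and miR845b, which pair with retrotransposons in pollen, matched no member without a bulge. With the bulge, miR845a matched AT4G38545, at 1.68 FPKM in Ler-0 and 2.81 in Col-0, which is 1 of 22 such loci (0.254% of members and 0.066% of all loci). For miR399, AT2G31902, across from the myosin gene XIF, matched miR399f without a bulge, and AT1G07728, across from the exocyst gene EXO70H6, matched miR399d and miR399e with it. A match is a run of letters and not a shown target.

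The phosphate pathway is where target mimics are best known, in that the noncoding RNA IPS1 holds miR399 off PHO2. The tables class both mimics, IPS1 and AT4, as protein-coding, so neither is a member. IPS1 was at 0.0623 FPKM in Ler-0 and 0.0967 in Col-0, from 3 and 4 reads, and AT4 at 0.437 and 0.452. Of 7 regulators, PHR1, the transcription factor of the phosphate response, was at 7.12 FPKM in Ler-0 against 9.50 in Col-0, and SPX1, which restrains PHR1, at 1.39 and 2.29; PHO2, PHL1, SPX2, SPX3 and SPX4 were under FPKM 1. The transporter PHT1;4 was at 0.266 FPKM in Ler-0 and 3.52 in Col-0, a log2 ratio of -1.90, while PHO1 and PHT1;1 were at 0.0719 or below in both. The 7 microRNA genes MIR399A to MIR399F and MIR827A had at most 2 reads in either library. Of these 19 phosphate genes only PHR1, SPX1 and PHT1;4 were expressed, and none of the 3 was past 4-fold on FPKM + 1. The FPKM ratio of PHT1;4, without a pseudocount, was 0.0757 with a counting interval of 0.0585 to 0.0965, wholly beyond 4-fold on the lower side, where 4.93% of all expressed loci had such an interval.

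Length and base composition did not set the expressed members apart in these descriptions. The median span was 1223 bases for expressed members and 1252 for the others, and the median GC content 38.7% and 39.0%. Of all members, 170 have a single exon in TAIR10.1, and 53, of them 15 expressed, hold an open reading frame of 100 codons or more. ZPR4 (AT2G36307), which the annotation lists among noncoding loci under the name LITTLE ZIPPER 4, was at 0.303 FPKM in Ler-0 and 0.257 in Col-0. Within 2 kb of a transposable element gene lie 27 members. The expressed members are spread over all 5 chromosomes. They are 44 of 118 members on chromosome 1, 20 of 83 on chromosome 2 and 20 of 66 on chromosome 3. On chromosome 4 they are 18 of 62, and on chromosome 5, 29 of 65.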

How the data were processed

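RNA left after rRNA depletion was read in 1 library of Ler-0 pollen and 1 of Col-0 pollen. The authors deposited FPKM per locus, per the file headers; Subread and TAIR10 were used, per the submitters' processing notes, with no version given for Subread. The use of strand and of reads with several places is not given in the sources used here. Noncoding members, lists and rules were chosen with earlier results of these data known.

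FPKM times span (end minus start) gave whole reads, within 0.01, in 100% of values, so counting intervals could be added: exact 95% Poisson for FPKM and exact Clopper-Pearson for FPKM ratios (SciPy 1.17.1). They cover counting error only. There is no p-value, as each ecotype has 1 library. Calls use log2 of FPKM plus a pseudocount of 1, Ler-0 divided by Col-0 and centred on the median, at 4-fold among loci at FPKM 1 or more in either library. The pseudocount understates ratios of low loci. The procedure was tested on simulated reads.

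Members named are the 10 most abundant by mean FPKM, the 10 at each end of the ratio, those with a symbol or a TAS product, their partners, and the genes of the lists; others are marked or serve as neighbours. Names, exons and sequences come from RefSeq TAIR10.1. In it 213 of 394 members have the same start and end as in the deposited tables, whose TAIR10 coordinates are printed, and 99.8% of 3895 transposable element genes do. Copies were sought with BLAST 2.17.0, and pairs were aligned with Biopython 1.88. Sensitivity to pseudocount, filter, centring, threshold and overlap was tried.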

Additional observations from a re-analysis of the deposited data

How the results depend on the processing

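No paired analysis was possible because there is only 1 library for an ecotype. Under the alternatives to the ratio, members lower in Ler-0 remained more numerous than members higher, and the median stayed below 0. Members 4-fold higher and lower in Ler-0 numbered 4 and 12. With a pseudocount of 0.1 they numbered 7 and 22, or 5.34% and 16.8% of members, beside 7.84% and 6.07% of all expressed loci. With a pseudocount of 5 they numbered 2 and 4, or 1.53% and 3.05%, beside 1.31% and 0.805%. At 2-fold the counts were 16 and 30, or 12.2% and 22.9%, beside 11.3% and 10.3%. Among members that overlap no listed locus the 4-fold counts were 2 and 8. With the interval of the FPKM ratio wholly beyond 4-fold, 5 were higher and 19 lower, or 3.82% and 14.5%, against 6.19% and 4.93% of all expressed loci. The median of -0.36 was -0.50 and -0.17 with those pseudocounts, -0.22 with a filter at FPKM 5, where all loci had -0.027, -0.039 with no filter, close to the -0.021 of all loci, -0.26 when centred on genes at FPKM 10 or more, which put the median of all expressed loci at 0.16 in place of 0.06, and -0.76 without overlapping members. Of 36 named members 14 were past 4-fold; 6 of these stayed past it with a pseudocount of 5, and none of the 14 changed sign. Of the others, TAS1A, TAS1C and TAS3b fell just below 0 with a pseudocount of 5 (-0.006, -0.001 and -0.007), and ZPR4 came out above 0 with one of 0.1 (0.10) and with the centring at FPKM 10 (0.09).

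At a level of FPKM 5, 45 members in Ler-0 and 53 in Col-0 passed, and among members without overlap 33 and 42 were at FPKM 1 or more. The members' share of reads, 0.608% in Ler-0 against 0.631% in Col-0, changed direction without overlapping members, at 0.185% against 0.0988%. That change rests on AT1G15405, with 113351 of the 164596 reads left in Ler-0 and 21254 of 75533 in Col-0. The share was 0.469% against 0.458% without the member of most reads in each library, AT2G45315 in Ler-0 and AT3G05932 in Col-0. As unlike loci were left out, those shares show no direction for a common set of members. Alternatives that kept members not wholly inside another locus, or left out the 4 with the upstream letters, were chosen after seeing the data; they gave 4 and 12 at a median of -0.34, and 3 and 12 at -0.38. Depth limits the TAS loci, where 1 to 78 reads stand behind each value, and the members without a read in 1 of the libraries.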
